A study of Mus musculus with 15 samples.

Results

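The uterine transcript levels reached 24 h after estradiol were compared with those reached 24 h after estriol in ovariectomized CD-1 mice, an outbred strain. The comparison rests on 6 of the 15 one-colour Agilent mouse arrays of the study: the 3 arrays titled E2 24h and the 3 titled E3 24h. The labels E2 and E3 are taken here to mean estradiol and estriol, as is customary. Estriol differs from estradiol by having 1 more hydroxyl group, on the D ring. Every mouse in the study had lost its ovaries. Mice of both groups received a single injection of 250 ng of the hormone in 100 µl of saline, and the vehicle group (3 arrays) received 100 µl of saline alone. The other 6 arrays came from uteri taken 2 h after either hormone. The labels give neither the collection time of the vehicle uteri nor the age of the mice, and they do not say whether each array is a separate animal or a pool. The p-values below therefore measure the spread between arrays, which may be technical in part. Whole uterus was used, so fewer cells of a type and less RNA per cell cannot be told apart.

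Estradiol and estriol bind the estrogen receptor, a hormone-activated transcription factor encoded by Esr1 in the uterus. Estradiol is the principal ovarian estrogen of cycling animals. Estriol is classically described as a short-acting estrogen: a single dose gives the early uterine changes, such as fluid uptake, while full growth needs continued exposure. In the ovariectomized mouse, an estrogen injection is followed first by the induction of immediate early genes and later by a wave of DNA synthesis and mitosis in the uterine epithelium. The 24 h time point falls in that later phase.

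A level is the log2 processed signal minus the 75th percentile of its array, so that 0 is the 75th percentile and a difference of 1 is a doubling. That percentile was 1254, 1338 and 1506 signal units on E2 24h replicates 1, 2 and 3, and 1644, 1222 and 1053 on the E3 24h replicates. Between 63.7% and 76.5% of probes were well above background on these 6 arrays. The E3 24h arrays were the least alike of any group. Their pairwise correlations over probes were 0.959 to 0.971 against 0.986 to 0.989 among the E2 24h arrays, and the median SD of a probe was 0.266 against 0.191, with 0.156 to 0.174 in the other 3 groups. Each E3 24h replicate deviated in its own way. On the first principal component of the 6 arrays (38.4% of variance) the E2 24h replicates lay at -34.8, -39.6 and -46 and the E3 24h replicates at 12, 14.8 and 93.6. E3 24h replicate 2 stood apart on the second component (-84.2) and replicate 1 on the third (70.3). The 2 groups shared no slide: E2 24h was on slides 6, 2 and 3, and E3 24h on slides 4, 5 and 4. Slide and hormone cannot be told apart within these 6 arrays.

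At 24 h, 613 of 28247 probes tested (2.17%) differed between the hormones at an adjusted p under 0.05, of which 357 (1.26%) were higher with estradiol and 256 (0.906%) higher with estriol. Of these, 450 differed by at least 2-fold, 249 of them higher with estradiol. The called probes belonged to 451 genes with a symbol, 253 higher with estradiol and 198 higher with estriol. Tested probes had a signal well above background on each of the 3 arrays of at least 1 group. Through both groups 25575 probes entered, 2439 entered only through E2 24h and 233 only through E3 24h. Of the 613 called probes, 563 entered through both groups. Entry through 1 group was thus mostly through estradiol, which favours calls in its direction. For 67.1% of probes the 95% interval excluded differences of 2-fold or more in both directions. These counts rest on few arrays. The 6-array limma fit made 0 calls without E2 24h replicate 1, 2 or 3 or without E3 24h replicate 3, against 634 and 1216 calls without E3 24h replicate 1 and 2 (4256 to 7877 probes had an unadjusted p under 0.05 in these 6 fits, 6364 with all arrays). A fit to all 15 arrays, which shares 1 estimate of spread over the 5 groups, called 4629 probes (16.4%), 2765 of them higher with estradiol (9.79%) and 1864 higher with estriol (6.6%), and 2607 to 5828 with 1 of the 6 arrays left out. The arrays were scanned on 3 days: the 4 arrays of scan day 1 alone (2 a group) gave 0 calls, the 15-array fit with scan day as a block gave 3201, and a fit to the 12 estrogen arrays with slide as a block gave 4, none of them among the 613. Because the E3 24h arrays spread most, the estimate shared over the 5 groups is likely too small for them. Adjusted p-values of the 15-array fit that involve estriol at 24 h, against vehicle too, are then too low. Calls below are those of the 6-array fit unless the 15-array fit is named.

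Each gene list is described by the probe of each gene with the highest mean over all arrays. Over all 15128 genes with a symbol, 202 (1.34%) were called higher with estradiol and 169 (1.12%) higher with estriol, 2.45% in all, and the median difference was 0.02. Among the 22 lists of processes, the medians ran from 1.23 for sterol and fatty acid synthesis to -0.52 for interferon response genes. The lists that stood highest were those of cholesterol synthesis, mitosis and DNA replication.

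**Figure D1:**
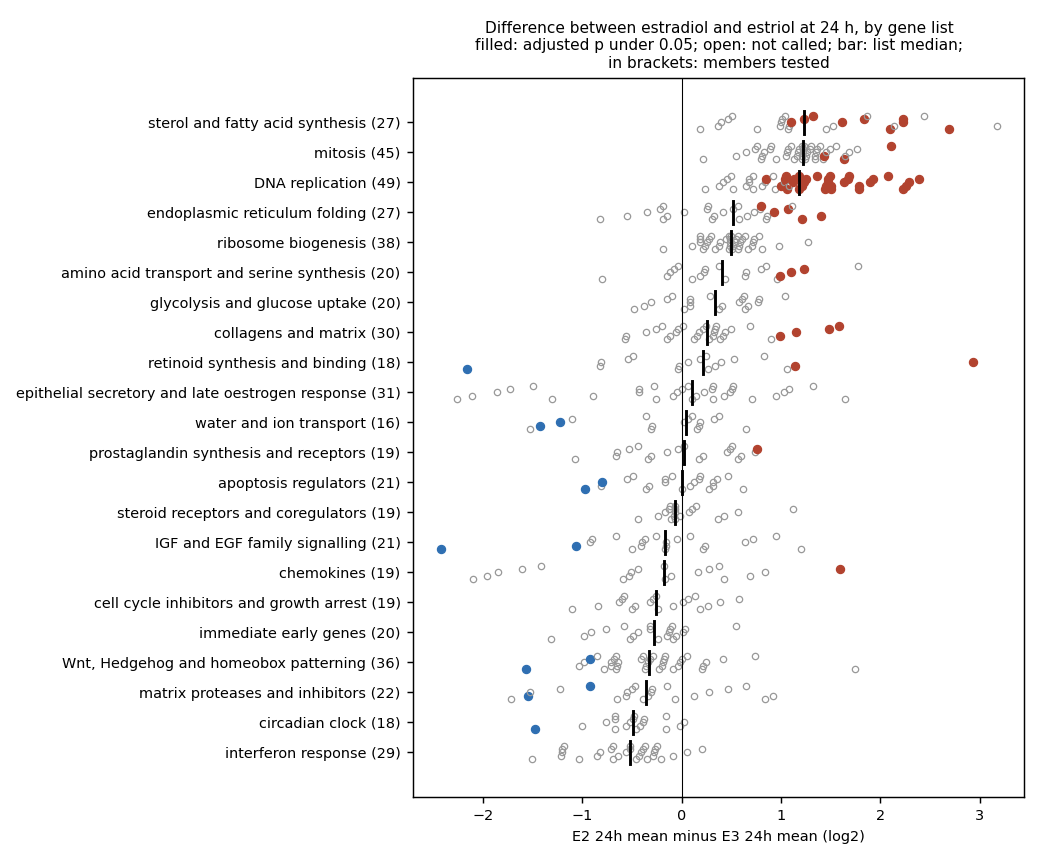
Each point is 1 gene: its E2 24h mean minus its E3 24h mean (log2, 3 arrays each), in 22 lists ordered by their median (bar). Filled points are called in the 6-array fit. The 3 lists at the top have medians of 1.23, 1.22 and 1.18, and 32 of the 49 DNA replication genes are filled, all to the right of 0.

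The DNA replication genes were higher with estradiol than with estriol. Of 49 members tested, 32 were called higher with estradiol and 0 higher with estriol, and the median difference was 1.18. In the 15-array fit 47 and 0 were called (9.79% and 6.6% of all probes). The E2 24h and E3 24h arrays did not overlap for 47 members, where 29.2% of all probes did not overlap. Set against vehicle in the 15-array fit, in which both hormones share the same vehicle arrays, 42 members were above vehicle with estradiol and 0 below (20.8% and 24.5% of all probes). With estriol, 0 were above vehicle and 11 were below (9.32% and 13.4% of all probes, 22.7% in either direction). The median member stood 0.93, 0.88 and 0.86 above the vehicle mean on the E2 24h arrays. It stood at -0.11, -0.35 and -0.34 on the E3 24h arrays, against -0.11, -0.04 and 0.15 on the vehicle arrays themselves. All 3 E2 24h arrays were thus above every vehicle array, and no E3 24h array was above the vehicle range. At 2 h the median difference between the hormones over these genes was 0.07.

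Origin licensing loads the MCM helicase onto DNA before S phase, and 4 of its 5 listed genes were called. Cdc6, which helps load the helicase, had levels of -1.87, -2.01 and -1.49 with estradiol, -4.06, -3.66 and -4.42 with estriol and -3.3, -3.09 and -2.98 with vehicle (probe on chromosome 11, 99030298 to 99030357, mm7). Every E2 24h array was above, and every E3 24h array below, all vehicle arrays. The difference between the hormones was 2.26 ± 0.24 (SE, 3 arrays a group; 4.78-fold; adjusted p = 0.023), and the level with estriol was lower than with vehicle by 0.92 (value -0.92, adjusted p = 0.0073, 15 arrays). Orc1, a subunit of the origin recognition complex, differed by 1.93 and Gmnn, which encodes the licensing inhibitor geminin, by 1.67. Cdt1 differed by 1.04, while Orc6 (0.38, adjusted p = 0.17) was not called.

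Of the 6 subunits of the MCM helicase, 5 were called, with differences of 1.9 for Mcm5, 1.5 for Mcm3, 1.47 for Mcm2, 1.06 for Mcm6 and 1.05 for Mcm4. Mcm7 differed by 0.5 (adjusted p = 0.18). For Mcm2 the levels were 1.14, 1.31 and 1.58 with estradiol, -0.27, 0.33 and -0.42 with estriol, and 0.74, 0.71 and 0.79 with vehicle. The 3 groups did not overlap, and estriol was the lowest. Among the factors that start the loaded helicase, 4 of 8 were called: Mcm10 (2.08), Cdc45 (1.79), Gins2 (1.5) and Gins1 (1.45).

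The genes that copy the DNA showed smaller differences: 7 of 16 were called, and the median was 0.88. Pole2 and Pole, subunits of the leading-strand polymerase, differed by 1.49 and 1.36. Pcna, the sliding clamp, had levels of 3.87, 3.78 and 3.92 with estradiol, 2.99, 2.85 and 2.72 with estriol, and 3.22, 3.11 and 3.17 with vehicle. Its difference was 1 ± 0.14 (SE; 2-fold; adjusted p = 0.031), and all 3 estriol arrays were below all 3 vehicle arrays. The primase subunit Prim2 had the smallest difference of the list (0.24, SE 0.98).

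Nucleotide supply genes were called in 5 of 6 cases. Tk1, the thymidine kinase of dividing cells, was at 1.98, 2.32 and 1.79 with estradiol, at 0.18, -0.83 and -0.41 with estriol and at -0.78, -0.48 and -0.08 with vehicle. The estriol arrays overlapped vehicle, and the estradiol arrays stood above both. The difference was 2.39 ± 0.28 (SE; 5.23-fold; adjusted p = 0.025), the largest of the list. Rrm2, the regulated subunit of ribonucleotide reductase, differed by 1.63 and the thymidylate synthase gene Tyms by 1.18.

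Of the G1/S regulators, the cyclin E genes Ccne2 and Ccne1 and the transcription factor E2f1 were called, with differences of 2.29, 1.68 and 1.79, and E2f2 (0.52, adjusted p = 0.13) was not. A second Ccne2 probe was not well above background on any E3 24h array, and its difference is at least 2.34-fold. All 4 genes of chromatin assembly and methylation copying were called. Uhrf1, which recruits the maintenance DNA methyltransferase to replicated DNA, was at 1.18, 0.83 and 1.29 with estradiol, -0.71, -1.14 and -1.55 with estriol and -0.5, -0.36 and -0.09 with vehicle. The groups did not overlap, with a difference of 2.23 ± 0.25 (SE; adjusted p = 0.023). Dnmt1, that methyltransferase, differed by 1.12.

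**Figure D2:**
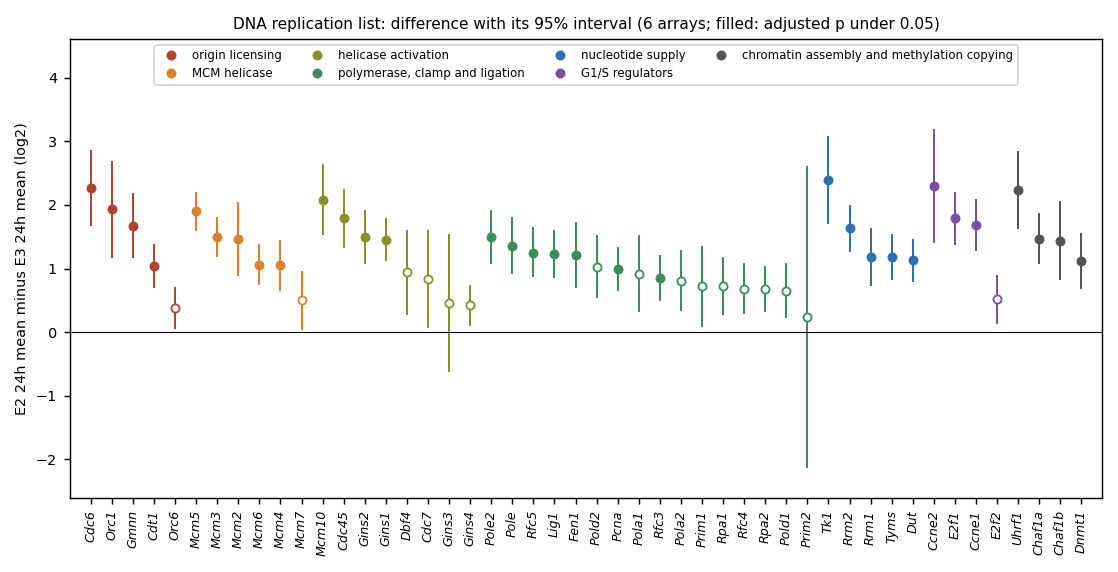
Differences of 48 of the 49 DNA replication genes between the hormones (E2 24h mean minus E3 24h mean, log2) with their 95% intervals, grouped by role. Filled points are called. Tk1 (2.39) has the largest difference, and Prim2 has the widest interval.

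The mitosis genes gave a similar median difference, 1.22, with a much larger spread among the estriol arrays. Of 45 members tested, 3 were called higher with estradiol and 0 with estriol (1.34% and 1.12% of all genes). In the 15-array fit 37 were called, all higher with estradiol (9.79% of all probes). All 45 differences were above 0, and the groups did not overlap for 36 members, where 29.2% of all probes did not overlap. The estradiol arrays were above vehicle for 44 members in the 15-array fit (20.8% of all probes). In contrast to the replication genes, 18 mitosis genes were above vehicle with estriol in that fit and 0 below (9.32% and 13.4% of all probes). The median member stood 1.9, 2.07 and 1.84 above the vehicle mean with estradiol and 1.41, 0.43 and 0.31 above it with estriol. On the vehicle arrays themselves it stood at -0.18, -0.1 and 0.28, so estriol replicates 2 and 3 lay just above the highest vehicle array. E3 24h replicate 1 was thus the highest of its group for this list, between the other 2 estriol arrays and the estradiol arrays. The median SD of a mitosis gene was 0.64 on the E3 24h arrays and 0.2 on the E2 24h arrays, while for replication genes it was 0.25 and 0.14.

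Pbk, a mitotic kinase, was at 1.04, 0.84 and 0.8 with estradiol and at -0.39, -1.86 and -1.4 with estriol, against -1.31, -1.26 and -0.9 with vehicle. The estriol arrays spread across the vehicle values, and the difference between the hormones was 2.11 ± 0.36 (SE; adjusted p = 0.046). Bub1, a kinase of the spindle checkpoint, and Foxm1, a transcription factor of G2 and mitotic genes, were the other two called, with differences of 1.63 and 1.43. Top2a, the topoisomerase that untangles sister chromatids, differed by 1.68 (adjusted p = 0.054). The mitotic cyclin gene Ccnb1 was at -0.16, -0.29 and -0.49 with estradiol, -0.61, -1.51 and -2.11 with estriol and -3.1, -3.02 and -2.22 with vehicle. The 3 groups did not overlap on this probe, whereas on another Ccnb1 probe the lowest estriol array (-3.34) was below the highest vehicle array (-3.15). Its difference between the hormones (1.1, adjusted p = 0.15) was not called, and nor was that of the proliferation marker Mki67 (0.95, adjusted p = 0.14). Both were above vehicle with estriol in the 15-array fit, Ccnb1 by 1.37 (adjusted p = 0.015) and Mki67 by 0.81 (adjusted p = 0.041). Other probes did not keep that call below 0.05: 2 for Ccnb1 gave 0.82 and 0.92 (adjusted p = 0.075 and 0.05) and 1 for Mki67 gave 0.65 (adjusted p = 0.1). Cdc25b, a phosphatase that activates Cdk1, had the smallest difference of the list (0.22).

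**Figure D3:**
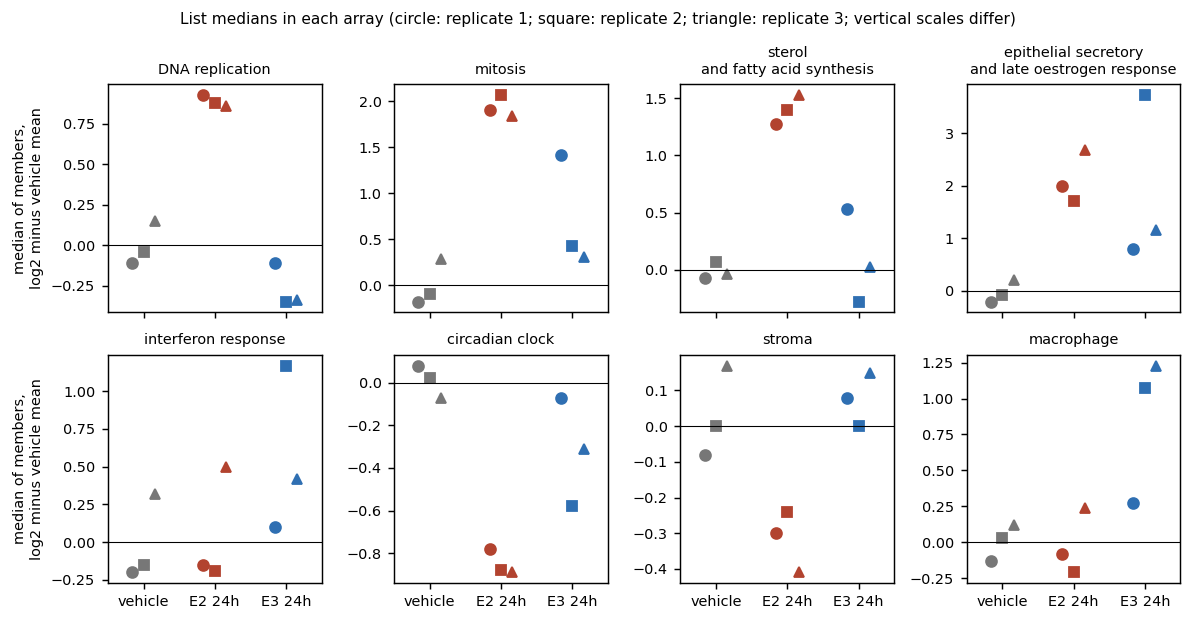
Median over the members of 8 lists of the level minus the vehicle mean (log2), for each vehicle, E2 24h and E3 24h array. For DNA replication the E3 24h arrays lie at -0.11, -0.35 and -0.34 beside or below vehicle, while for mitosis replicate 1 lies at 1.41. In the epithelial secretory list replicate 2 lies at 3.73, above every other array.

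Cholesterol is made from acetyl-CoA through the mevalonate pathway, squalene and lanosterol, and the enzymes are regulated together by SREBP-2. Of 27 genes of sterol and fatty acid synthesis tested, 9 were called higher with estradiol and 0 with estriol. In the 15-array fit 21 and 0 were called (9.79% and 6.6% of all probes). The median difference was 1.23. In the 15-array fit 20 members were above vehicle with estradiol and 3 with estriol (20.8% and 9.32% of all probes). The count with estriol is near the share of all probes. The median member stood at 1.27, 1.4 and 1.53 on the estradiol arrays and at 0.53, -0.28 and 0.02 on the estriol arrays, relative to vehicle.

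The calls fell within the 15 enzymes of cholesterol synthesis, every one of which had a difference of at least 1. From mevalonate to squalene, 4 of 7 were called: Fdps (2.23), Hmgcs1 (1.84), Mvk (1.61) and Mvd (1.32). Of the 8 enzymes from squalene to cholesterol, 5 were called, among them Sqle (2.69), Msmo1 (2.1), Dhcr7 (1.23) and Sc5d (1.1).

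Sqle, the squalene epoxidase, was at 2.44, 2.88 and 2.71 with estradiol, 0.66, -0.5 and -0.22 with estriol and -0.02, -0.14 and -0.06 with vehicle (probe on chromosome 15, 59397289 to 59397348, mm7). Its difference was 2.69 ± 0.32 (SE; 6.47-fold; adjusted p = 0.025). Msmo1, the sterol C4-methyl oxidase, was at 3.68, 3.79 and 3.79 with estradiol, 2.28, 0.95 and 1.72 with estriol and 1.73, 1.79 and 1.72 with vehicle, a difference between the hormones of 2.1 ± 0.33 (SE; adjusted p = 0.038). In both genes the estriol arrays lay around the vehicle values, with replicate 1 the highest and replicate 2 the lowest, and all 3 estradiol arrays stood above them. Against vehicle, Sqle differed by 2.75 with estradiol and 0.06 with estriol (adjusted p = 3.3e-05 and 0.91, 15 arrays), and Msmo1 by 2.01 and -0.1 (adjusted p = 0.00021 and 0.83).

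None of the 6 regulation and uptake genes was called, although their median difference was 1.06. In this group Srebf2, which encodes SREBP-2, differed by 1.08 (adjusted p = 0.12). The fatty acid enzymes differed least: 0 of 6 were called, with a median of 0.44, and Fasn, the fatty acid synthase, differed by 0.19 (adjusted p = 0.69).

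**Figure D4:**
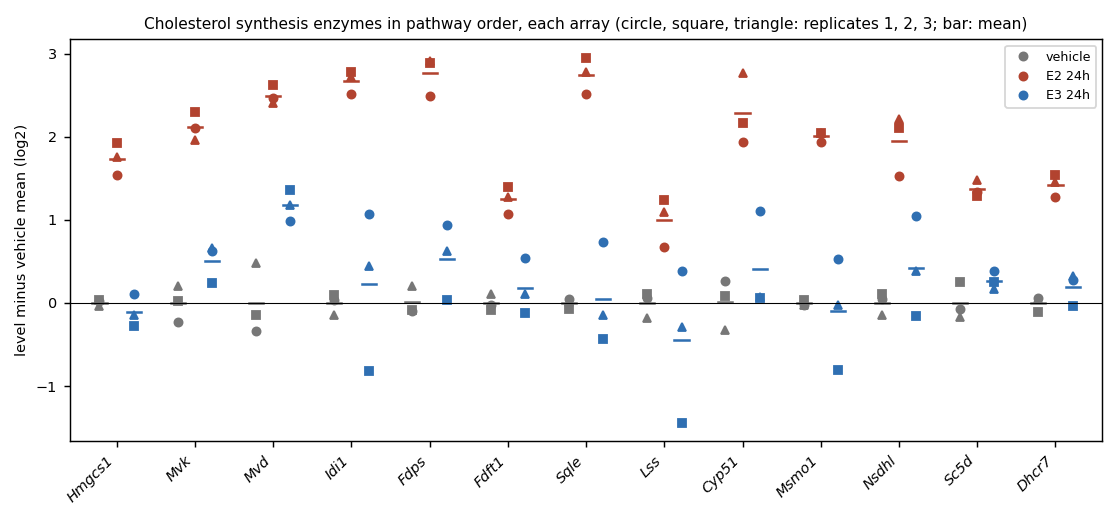
Level minus vehicle mean (log2) of 13 of the 15 cholesterol synthesis enzymes in pathway order, for each vehicle, E2 24h and E3 24h array, with the group mean as a bar. The estradiol arrays lie highest for each enzyme drawn, and for Sqle and Msmo1 the estriol values lie around 0.

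The 250 bases before the starts of the genes tested were searched for 5 motifs on both strands: CCAAT (the box bound by NF-Y), TTTGAA (the core of the CHR element of cell cycle promoters), TTTCCCGC and TTTGGCGC (forms of the E2F site, which can overlap one another), and the palindromic estrogen response element with any 3 bases between its arms. RefSeq promoters on GRCm38.p6 were found by symbol for 205 of the 253 genes called higher with estradiol and for 147 of the 198 higher with estriol. CCAAT stood in 51.6% of the 254 promoters of the first set, 35.4% of the 195 of the second and 34.7% of the 15216 of all genes tested. It stood in 77.5% of 40 promoters of the mitosis list, 71.4% of 21 of the sterol and fatty acid list and 54% of 50 of the DNA replication list. The mitosis list also held TTTGAA in 32.5% against 11.2% of all genes tested. TTTCCCGC was in 3.15% and TTTGGCGC in 1.57% of promoters higher with estradiol, against 1.43% and 0.637% of all genes tested, and each was in 6% of the replication promoters. The estrogen response element was in 0 of the promoters of either called set and in 0.0197% of those of all genes tested. Members of these lists are among the called genes, and a match is a description of the letters, not of binding.

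The first 3 promoters shown are those of the replication genes with the largest called differences and an entry. Next come 2 cholesterol enzymes and 1 mitosis gene, added after the values were seen, which carry several CCAAT boxes. The last 4 are the genes with the largest fitted differences in each direction and an entry, of which Pifo has only a bound and so no rank, and they hold none of the 5 motifs. Capitals mark a motif on either strand (ATTGG is CCAAT on the other strand), and each run ends at the base before the start.
Tk1 (chr11:117826015-117826264, minus strand, GRCm38.p6): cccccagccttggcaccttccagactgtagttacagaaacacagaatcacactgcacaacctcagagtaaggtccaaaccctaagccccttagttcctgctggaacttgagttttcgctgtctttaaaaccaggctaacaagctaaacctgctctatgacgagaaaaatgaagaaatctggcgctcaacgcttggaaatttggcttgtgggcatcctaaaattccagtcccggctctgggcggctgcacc
Cdc6 (chr11:98907901-98908150, plus strand, GRCm38.p6): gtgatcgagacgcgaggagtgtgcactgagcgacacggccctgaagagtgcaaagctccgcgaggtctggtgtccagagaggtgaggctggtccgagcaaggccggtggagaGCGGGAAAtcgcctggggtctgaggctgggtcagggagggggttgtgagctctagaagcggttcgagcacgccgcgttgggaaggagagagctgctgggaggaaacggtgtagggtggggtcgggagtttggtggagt
Uhrf1 (chr17:56303087-56303336, plus strand, GRCm38.p6): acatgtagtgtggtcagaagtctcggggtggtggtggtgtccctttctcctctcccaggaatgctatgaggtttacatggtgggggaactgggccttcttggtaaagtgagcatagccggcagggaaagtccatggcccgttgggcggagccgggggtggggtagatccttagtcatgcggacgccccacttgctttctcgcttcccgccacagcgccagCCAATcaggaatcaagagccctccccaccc
Msmo1 (chr8:64733579-64733828, minus strand, GRCm38.p6): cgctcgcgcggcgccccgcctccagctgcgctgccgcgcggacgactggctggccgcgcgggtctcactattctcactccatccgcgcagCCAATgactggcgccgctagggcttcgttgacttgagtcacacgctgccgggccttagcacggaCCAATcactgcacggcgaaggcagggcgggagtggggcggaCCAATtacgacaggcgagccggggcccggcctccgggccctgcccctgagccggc
Hmgcs1 (chr13:119690101-119690350, plus strand, GRCm38.p6): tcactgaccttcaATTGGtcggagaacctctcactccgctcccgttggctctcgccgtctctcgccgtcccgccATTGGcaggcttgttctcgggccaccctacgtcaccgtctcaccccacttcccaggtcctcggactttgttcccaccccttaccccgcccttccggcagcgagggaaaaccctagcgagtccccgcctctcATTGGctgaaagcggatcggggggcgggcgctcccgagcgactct
Bub1 (chr2:127831860-127832109, minus strand, GRCm38.p6): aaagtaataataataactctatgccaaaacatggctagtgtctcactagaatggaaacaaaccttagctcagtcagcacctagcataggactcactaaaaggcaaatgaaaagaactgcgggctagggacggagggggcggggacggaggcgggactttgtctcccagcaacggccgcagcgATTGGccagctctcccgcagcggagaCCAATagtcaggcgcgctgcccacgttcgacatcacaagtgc
Pifo (chr3:106014647-106014896, minus strand, GRCm38.p6): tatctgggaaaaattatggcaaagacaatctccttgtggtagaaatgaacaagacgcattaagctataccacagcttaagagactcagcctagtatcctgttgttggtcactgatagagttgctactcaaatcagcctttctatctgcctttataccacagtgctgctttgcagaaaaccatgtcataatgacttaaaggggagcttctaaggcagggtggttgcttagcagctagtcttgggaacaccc
Crabp1 (chr9:54764498-54764747, plus strand, GRCm38.p6): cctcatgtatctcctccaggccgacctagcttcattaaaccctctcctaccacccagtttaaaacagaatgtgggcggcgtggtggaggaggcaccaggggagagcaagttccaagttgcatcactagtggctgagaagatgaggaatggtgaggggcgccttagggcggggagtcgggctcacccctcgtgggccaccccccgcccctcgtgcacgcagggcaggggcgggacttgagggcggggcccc
Inmt (chr6:55174991-55175240, minus strand, GRCm38.p6): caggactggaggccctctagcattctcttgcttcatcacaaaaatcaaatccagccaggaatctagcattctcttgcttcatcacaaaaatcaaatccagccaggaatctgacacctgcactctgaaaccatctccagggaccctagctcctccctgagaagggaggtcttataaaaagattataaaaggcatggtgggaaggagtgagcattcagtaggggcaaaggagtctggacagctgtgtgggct
Coch (chr12:51593091-51593340, plus strand, GRCm38.p6): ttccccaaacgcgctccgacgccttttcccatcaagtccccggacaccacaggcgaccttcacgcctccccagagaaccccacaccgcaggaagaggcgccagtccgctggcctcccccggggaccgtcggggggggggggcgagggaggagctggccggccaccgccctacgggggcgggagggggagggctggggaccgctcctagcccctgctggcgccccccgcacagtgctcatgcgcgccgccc
In Cdc6 the E2F form began 138 bases before the start. The CCAAT boxes began 30 bases before the start in Uhrf1, 160, 96 and 55 in Msmo1, 237, 176 and 45 in Hmgcs1, and 68 and 42 in Bub1. Tk1 held none of the 5 in this window.

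Protein folding in the endoplasmic reticulum and amino acid supply also held genes that were higher with estradiol. Of 27 endoplasmic reticulum genes, 5 were called, all higher with estradiol, and the median difference was 0.52. Calr, a calcium-binding chaperone, was at 4.38, 4.52 and 4.41 with estradiol, 2.94, 3.2 and 2.97 with estriol and 2.71, 2.93 and 3.07 with vehicle. The estriol and vehicle arrays overlapped and the estradiol arrays stood above them, with a difference of 1.4 ± 0.14 (SE; adjusted p = 0.021). The disulfide isomerase genes Pdia6 and Pdia3 differed by 1.21 and 0.93, the translocon-associated Ssr1 by 1.07 and the chaperone gene Hsp90b1 by 0.8. Of 3 other Pdia6 probes, 2 were called (1.07 and 1.24) and 1 was not (0.06, adjusted p = 0.92), and 2 other Ssr1 probes were not called (0.34 and 0.13). Of the 27 differences 20 were above 0, and among the uncalled members Ddit3 was at -0.82 (adjusted p = 0.06) and Herpud1 at -0.55 (adjusted p = 0.19).

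Among 20 genes of amino acid transport and serine synthesis, 3 were called, all higher with estradiol: Aldh18a1 of proline synthesis (1.23), Psat1 of serine synthesis (1.1) and the mitochondrial Shmt2 of one-carbon metabolism (0.99). For Aldh18a1 the levels were 0.28, 0.23 and 0.19 with estradiol, -1.03, -1.05 and -0.91 with estriol and -1.16, -1.06 and -0.93 with vehicle. The estriol arrays lay within the vehicle range or just above it. In the ribosome biogenesis list, 37 of 38 differences were above 0, the median was 0.5 (-0.14 with slide as a block), and 0 members were called (15 in the 15-array fit). Glycolysis and glucose uptake had a median of 0.34 with 0 of 20 called (8 in the 15-array fit). The 15-array calls of both lists were all higher with estradiol (9.79% of all probes).

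Matrix genes divided between structural proteins and proteases. Of 30 collagens and matrix genes, 4 were called, all higher with estradiol: Vcan (1.58), Col6a2 (1.48), Col6a3 (1.15) and Col5a1 (0.99). Col6a3, a chain of the microfibrillar collagen VI, was at 4.95, 4.92 and 4.65 with estradiol, 3.66, 3.75 and 3.66 with estriol and 3.28, 3.28 and 3.21 with vehicle. The groups did not overlap on this probe, but the difference of estriol from vehicle (0.43, adjusted p = 0.054, 15-array fit) was not called. On another Col6a3 probe estriol and vehicle overlapped, with a difference of 0 (adjusted p = 0.99). The fibrillar collagens Col1a1 (0.5, adjusted p = 0.22) and Col3a1 (0.44, adjusted p = 0.14) were not called between the hormones. In the 15-array fit Col1a1 was above vehicle by 2.45 with estradiol and 1.95 with estriol. For Col6a2 a second probe differed by 0.73 (adjusted p = 0.34). Of 22 matrix proteases and inhibitors, 2 were called, both higher with estriol: Mmp9, the gelatinase B gene (by 1.55), and Plat, the tissue plasminogen activator (by 0.92). Mmp9 was at -2.24, -1.94 and -2.41 with estradiol, -0.97, -0.57 and -0.39 with estriol and -1.17, -0.8 and -0.72 with vehicle, so that estriol and vehicle overlapped and estradiol was lower. Other Plat probes were also higher with estriol, by 0.55 and 0.73, and were not called.

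The 12 genes with the largest fitted differences in favour of estriol fell into 2 kinds by their vehicle values. Coch, which encodes the secreted matrix protein cochlin, was at -5.43, -4.98 and -5.09 with estradiol, -0.67, -1.87 and -1 with estriol and 0.62, -0.18 and -0.3 with vehicle (probe on chromosome 12, 49618352 to 49618411, mm7). It was higher with estriol by 3.99 ± 0.32 (SE; 15.8-fold; adjusted p = 0.019). Against vehicle it differed by -5.22 with estradiol (adjusted p = 3.3e-06) and by -1.23 with estriol (adjusted p = 0.022). It was below vehicle with both hormones, further with estradiol.

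Inmt, an N-methyltransferase of indoleamines, had the largest difference, 5.06 ± 0.87 (SE; 33.3-fold; adjusted p = 0.046). Its levels were -2.04, -2.33 and -0.9 with estradiol, 2.99, 5.19 and 1.72 with estriol and 3.91, 4.56 and 4.08 with vehicle. The estriol arrays spread widely, to both sides of vehicle, and all lay above every estradiol array. Galnt15, a glycosyltransferase of mucin-type glycosylation, was at 1.56, 1.46 and 1.84 with estradiol, 3.96, 4.61 and 4.15 with estriol and 4.71, 4.98 and 5.13 with vehicle. Pamr1, a secreted protein with a peptidase-like domain, was at 1.13, 0.98 and 1.01 with estradiol, 3.59, 4.34 and 4.19 with estriol and 3.44, 3.75 and 4.22 with vehicle. These 2 differed by 2.62 and 3 (6.14-fold and 8.01-fold, adjusted p = 0.019 each). In both, the estradiol arrays were far below the other 6.

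The same arrangement held for Mlana (higher with estriol by 3.39), Fgf20 (3.48), the keratin-associated Krtap17-1 (3.02), the organic cation transporter gene Slc22a2 (2.74) and the potassium channel gene Kcnt1 (2.72). In these 5 genes every estradiol array was below every estriol and vehicle array, and none differed between estriol and vehicle at an adjusted p under 0.05 (15-array fit). Fgf20, a fibroblast growth factor gene, was well above background on 1 of 3 estradiol arrays. Aldh1a3, which makes retinoic acid, is represented by 2 probes with differences of 2.93 and 2.16. The first was well above background on 1 estradiol array and spread widely on the vehicle arrays (-3.7, -2.79 and -7.52). The second was at -2.66, -1.25 and -2.05 with estradiol, -0.12, 0.41 and 0.22 with estriol and 1.57, 1.72 and 1.46 with vehicle, with no overlap between the 3 groups.

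The remaining 2 were low in vehicle. Tescl was at -4.17, -4.11 and -3.47 with estradiol, -0.62, -0.12 and -0.88 with estriol and -5.03, -5.39 and -5.14 with vehicle, and was above vehicle with estriol by 4.65 (adjusted p = 0.0074) and with estradiol by 1.27 (adjusted p = 0.27). At 2 h it was at -6.49, -1.48 and -5.58 with estradiol and -1.3, -1.76 and -0.86 with estriol, a difference of -3.21 (adjusted p = 0.89). One E2 2h array therefore lay among the estriol values. Igsf23 was well above background on all 3 E3 24h arrays and on no estradiol or vehicle array, and its level with estriol was at least 3.35-fold higher than with estradiol.

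**Figure D5:**
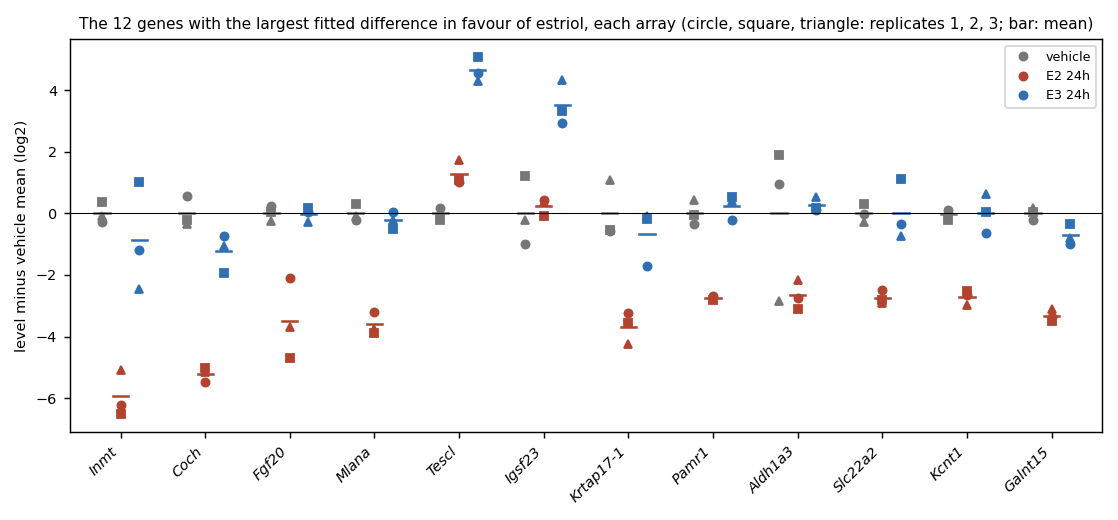
Level minus vehicle mean (log2) of the 12 genes with the largest fitted difference in favour of estriol (Igsf23 has only a bound), for each vehicle, E2 24h and E3 24h array, with the group mean as a bar. In 10 genes the estradiol mean lies below vehicle, and in Tescl and Igsf23 the estriol arrays lie above it.

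Signalling genes that were higher with estriol included binding proteins and ligands. Igfbp3 and Igfbp6, which bind insulin-like growth factors, were the 2 called members of 21 in the IGF and EGF list, higher with estriol by 2.42 and 1.06. Igfbp3 was at 0.2, 0.43 and 0.6 with estradiol, 2.98, 2.88 and 2.64 with estriol and 3.7, 4.1 and 3.53 with vehicle (adjusted p = 0.019 between the hormones). The groups did not overlap, and both hormones were below vehicle, by -3.36 with estradiol and -0.94 with estriol (adjusted p = 1.7e-06 and 0.0067, 15 arrays). The growth factor gene Igf1 itself was at 2.51, 2.74 and 2.44 with estradiol, 1.54, 2.15 and 2.07 with estriol and 1.17, 1.75 and 1.36 with vehicle. Its difference, estradiol minus estriol, of 0.64 (adjusted p = 0.14) was not called. That of its receptor gene Igf1r was -0.92 (adjusted p = 0.055). Other Igf1 probes disagreed on the difference from vehicle (15-array fit). On 1 it was -0.12 with estradiol (adjusted p = 0.6) and -0.63 with estriol (adjusted p = 0.025). On another it was 1.12 (adjusted p = 0.00051) and 0.47 (adjusted p = 0.084). Between the hormones these probes differed by 0.51 and 0.65 and were not called.

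Of 36 genes of Wnt, Hedgehog and homeobox patterning, 2 were called, both higher with estriol: the ligand gene Wnt2 (by 1.57) and the antagonist gene Dkk2 (by 0.92). Wnt2 was at -1.79, -2.18 and -2.23 with estradiol, -0.53, -0.27 and -0.68 with estriol and -0.44, -0.64 and -0.29 with vehicle, with estriol and vehicle overlapping. The apoptosis list had 2 of 21 called, both higher with estriol and of opposite known action: the survival gene Bcl2 (by 0.97) and the pro-death gene Bcl2l11 (by 0.8). Of the Bcl2l11 probes, 2 others were also higher with estriol, by 0.82 and 0.13, and were not called. In the list of water and ion transport 2 of 16 were called, the water channel gene Aqp1 (by 1.22) and the sodium channel subunit gene Scnn1b (by 1.43). Aqp1 was at 3.72, 3.59 and 3.47 with estradiol, 4.63, 4.94 and 4.87 with estriol and 5.1, 5.1 and 5.07 with vehicle. Both hormones were below all vehicle arrays, with estriol nearer.

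Of 18 circadian clock genes 1 was called, higher with estriol, and 17 of the 18 differences were below 0 (median -0.49). Against vehicle in the 15-array fit, 12 clock genes were lower with estradiol and 3 with estriol (24.5% and 13.4% of all probes). The count with estriol is thus near the share of all probes. The clock hour of the injections and collections was not stated in the labels, and its part in the result was not tested.

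Besides Aldh1a3, the retinoid list had 2 genes called in the other direction. Crabp1, which binds retinoic acid in the cytosol, was at -0.61, -0.06 and -0.87 with estradiol, -3.75, -3.37 and -3.22 with estriol and -5.12, -4.13 and -3.79 with vehicle, a difference of 2.93 ± 0.25 (SE; 7.64-fold; adjusted p = 0.019). The estriol arrays were all above the vehicle arrays, but that difference (0.9, adjusted p = 0.17) was not called. Stra6, the receptor for retinol-binding protein, was at -2.01, -2.01 and -1.62 with estradiol, -2.85, -3.21 and -3 with estriol and -1.91, -2.17 and -1.93 with vehicle. Here estradiol overlapped vehicle and estriol was lower (difference from vehicle -1.02, adjusted p = 0.0078).

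Other genes with large called differences were higher with estradiol. Pifo, a gene of primary cilium disassembly, was well above background on all 3 estradiol arrays, on no estriol array and on 1 vehicle array, and was at least 2.81-fold higher with estradiol. Gsg1l, an accessory subunit gene of glutamate receptors, differed by 2.58. Lrr1 and Dtl, substrate receptors of ubiquitin ligases that act during replication, were both called, and Lrr1 differed by 2.18. Of 2 Dtl probes, 1 was not well above background on any estriol array and was at least 2.03-fold higher with estradiol. The other Dtl probe, well above background on all 6 arrays, was called with a difference of 2 (4.01-fold, adjusted p = 0.025). The chemokine gene Ccl7 (1.59) was the 1 called of 19 chemokines, and Akr1b3, an aldo-keto reductase gene (0.76), the 1 called of 19 prostaglandin genes. For 5 called genes another probe had a difference in the same direction with an adjusted p of 0.054 to 0.071: Fdps (1.8), Akr1b3 (0.76), Col5a1 (0.81), Col6a3 (1.1) and Dcn (-1.05).

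Several classic estrogen response genes were not called between the hormones. None of 19 steroid receptor and coregulator genes was called, and their median difference was -0.07. In the 15-array fit 2 were called, where 16.4% of all probes were. The receptor gene Esr1 was at 2.17, 2.25 and 2.28 with estradiol, 2.34, 2.26 and 2.3 with estriol and 2.83, 2.92 and 2.86 with vehicle. The hormones overlapped and both were below vehicle, by -0.64 and -0.57 (adjusted p = 0.00068 and 0.0071, 15 arrays). A second, dimmer Esr1 probe differed from vehicle by 0.05 and -0.06 (adjusted p = 0.75 and 0.73). On the first probe the interval of the difference between the hormones, -0.37 to 0.23, excludes a 2-fold difference either way. For the progesterone receptor gene Pgr the interval was wide, -0.66 to 1.41 around 0.37, and for Greb1 -1.3 to 1.57 around 0.14. Of the immediate early genes, 0 of 20 were called (5 in the 15-array fit, where 16.4% of all probes were). Fos differed by 0.03 with an interval of -0.92 to 0.97. The cell cycle inhibitor gene Cdkn1a differed by -0.09 (-0.95 to 0.78), and 0 of 19 genes of its list were called.

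The 31 epithelial secretory and late response genes had 0 calls and a median difference of 0.1, with the largest spread of any process list among the estriol arrays. The median SD of a member was 1.76 on those arrays and 0.36 on the estradiol arrays. In the 15-array fit 18 members were above vehicle with estradiol and 16 with estriol (20.8% and 9.32% of all probes). The median member stood 1.99, 1.71 and 2.68 above vehicle with estradiol and 0.79, 3.73 and 1.15 with estriol. E3 24h replicate 2 was thus above every estradiol array and the other estriol replicates below all of them. Lcn2, the lipocalin gene, was at 0.93, 1.17 and 2.57 with estradiol and -0.59, 3.37 and -0.96 with estriol. Ltf, the lactoferrin gene, was at 3.51, 4.22 and 5.65 with estradiol and 4.02, 7.34 and 3.31 with estriol. In both genes replicate 2 was the highest of all 6 arrays, and the intervals (-1.84 to 3.73 and -3.05 to 2.19) excluded neither direction. The kallikrein genes of the list followed another array: Klk1 was at -1.57, 0.87 and 5.84 with estriol, highest on replicate 3, and at -0.94, -0.02 and -0.67 with estradiol.

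Cell type markers were measured beside these results. The 15 epithelium markers had 0 calls and a median difference of 0.2, with summed levels of 229 to 313 with estradiol and 215 to 364 with estriol on the linear scale of the 75th percentile. Of 11 stroma markers 1 was called, Dcn, the decorin gene, higher with estriol by 0.94, and the sums were 229 to 250 with estradiol, 350 to 433 with estriol and 281 to 350 with vehicle. Dcn alone gave 139 to 151 of these units with estradiol and 230 to 311 with estriol. Without it the other 10 stroma markers summed to 89.7 to 98.3 and 96 to 122, which overlap. Over all 11 stroma markers the median difference was -0.39, and 2 differences were above 0. In the 15-array fit 4 of them were called, all higher with estriol (6.6% of all probes). The 11 endothelium markers summed to 35.9 to 40.6 with estradiol, 45.7 to 59.6 with estriol and 51.5 to 55.9 with vehicle. Their median member overlapped between the hormones. Relative to vehicle it stood at -0.34, -0.46 and -0.4 with estradiol and at 0, -0.57 and -0.13 with estriol. The groups did not overlap for 2 of the 11 members, where 29.2% of all probes did not overlap. The 11 lymphocyte and NK cell markers had a median difference of -1.03 and low sums, 1.25 to 1.89 with estradiol and 1.56 to 3.57 with estriol. Smooth muscle, endothelium, mast cell, lymphocyte, granulocyte, erythrocyte, adipocyte, mesothelium and ovary markers had 0 calls. The macrophage list had a median of -0.93, and Adgre1, which encodes the macrophage antigen F4/80, was its 1 called member of 12.

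Adgre1 was at 0.82, 1.1 and 1.13 with estradiol, 2.23, 2.96 and 3.35 with estriol and 1.48, 1.48 and 1.45 with vehicle, higher with estriol by 1.83 (adjusted p = 0.041; a second probe, by 1.39, adjusted p = 0.071). On the first probe the groups did not overlap, with vehicle between them. The difference of estradiol from vehicle there (-0.46, adjusted p = 0.23, 15-array fit) was not called. On the second probe estradiol and vehicle overlapped (-0.1, adjusted p = 0.84). The 12 macrophage markers summed to 95.8 to 111 with estradiol, 152 to 368 with estriol and 116 to 171 with vehicle. Their median member stood at 0.27, 1.07 and 1.23 above vehicle on the estriol replicates. For the interferon response genes the median difference of 29 members was -0.52 and 0 were called, and their median member was highest on E3 24h replicate 2, 1.17 above vehicle. Endothelium and macrophage sums, and the stroma sum through Dcn, were higher with estriol without overlap, in the direction of the 256 probes higher with estriol. The median endothelium member did overlap between the hormones. The 11 lymphocyte and NK cell differences were all below 0. The part of these cell types in the results was not tested.

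At 2 h few probes passed the test between the hormones. In the same kind of fit over the 6 arrays of 2 h, 1 of 28247 probes (0.00354%) was called, the Best1 probe (3.84, adjusted p = 0.0012; -0.62 at 24 h, adjusted p = 0.87), with 1503 at an unadjusted p under 0.05. Best1 was named after its values were seen. The difference between the hormones differed between 24 h and 2 h for 1763 probes (6.24%) in the 15-array fit. At 2 h the median differences over the DNA replication, mitosis and sterol lists were 0.07, 0.1 and -0.09. Among genes with large 24 h differences, the 2 h difference was 0.31 for Cdc6, -0.02 for Sqle, -0.36 for Coch and 0.09 for Pamr1. It was 1.1 for Mlana and -3.21 for Tescl, neither of them called at 2 h (adjusted p = 0.89 each).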

How the data were processed

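Gene expression was measured in uteri on 15 one-colour Agilent arrays, 3 in each of 5 groups. The authors deposited intensity values on a linear scale: these are processed signals, which Feature Extraction 9.5.3.1 had background-subtracted and detrended within an array, per the file headers. Probe positions are on mm7, per the file headers, and promoters on GRCm38.p6.

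Spots marked as outliers were removed and spots of 1 probe averaged. Of 41174 probes, 53 lacked a value on at least 1 array and were not used. From the log2 signals of an array, their 75th percentile over non-control probes was subtracted, with no further normalization between arrays. Arrays give no counts, and their number limits the precision. A linear model was fitted with limma 3.58.1 in R 4.3.3 to the 6 arrays, with moderated variances and 2-sided p-values adjusted by Benjamini-Hochberg over 28247 probes. Comparisons with vehicle, and between times, used all 15 arrays. The procedure was run on simulated data with known shifts and noise independent between probes and arrays. That noise holds no slide or array-wide deviations, so the run says nothing about their effect on the calls.

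Genes named are the 12 largest called differences in each direction with a symbol, the up to 4 largest called members of each list, and 15 set genes. The results of some genes that these rules name are not reported here. Other members were named from the tables to describe their lists. The members and lists were chosen with earlier results of these data known. Where a probe was not well above background on any array of a group, an "at least" fold sets the mean of the brighter group against the mean, over the arrays of the other, of the dimmest detected signal or the probe's value, whichever was higher. Alternatives were other samples in the fit, scaling, background, filters, probe summaries, thresholds, blocks and each array left out. Some were added after the data were seen: leaving out arrays in the 15-array fit, scan day in that fit, and leaving out 2 estriol arrays. Deviations of same-numbered E2 24h and E3 24h arrays correlated at -0.17, -0.1 and -0.25. With so few arrays a group, that does not settle whether the replicate numbers pair the samples.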

Additional observations from a re-analysis of the deposited data

Results flagged for a closer look

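Of the 72 named probes, for 70 genes, 53 had a difference between the hormones that itself differed between 24 h and 2 h, by the test of the difference of differences in the 15-array fit (adjusted p under 0.05). Such a difference was found for 1763 of all 28247 probes (6.24%), and the named probes were largely chosen for their 24 h difference, so their share says nothing beyond that choice. Values are the E2 minus E3 difference at 24 h minus that at 2 h (log2), the 2 differences share no array, and the values of 49 probes are given. Pifo and a second Ccne2 probe, 2 of the 53, were not well above background on any E3 24h array, so the size of their difference was not measured.

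In the DNA replication genes and Lrr1 the values were Lrr1 (2.21), Tk1 (2.2), Ccne2 (2.08), Uhrf1 (1.99), Cdc6 (1.95), Mcm2 (1.47) and Pcna (1). The cholesterol enzymes gave Sqle (2.71), Msmo1 (2.33) and Fdps (2.26). The mitosis genes gave Pbk (2.06), Top2a (1.55), Bub1 (1.46) and Foxm1 (1.34). All of these were positive, so that the excess with estradiol was larger at 24 h than at 2 h.

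Other positive values were Crabp1 (3.21), Ccl7 (2.14), Calr (1.46), Col6a2 (1.4), Vcan (1.26), Pdia6 (1.23), Stra6 (1.22), Aldh18a1 (1.18), Psat1 (1.1), Ssr1 (1.1), Akr1b3 (1.02), Igf1 (0.98), Col6a3 (0.95), Col5a1 (0.86) and Pdia3 (0.85). Negative values, where the excess with estriol was larger at 24 h, were Igfbp6 (-0.86), Plat (-1), Bcl2 (-1.06), Dkk2 (-1.1), Bcl2l11 (-1.15), Aqp1 (-1.21), Mmp9 (-1.26), Scnn1b (-1.58), Adgre1 (-1.78), Wnt2 (-1.91), Igfbp3 (-2.54), Kcnt1 (-2.58), Galnt15 (-2.65), Krtap17-1 (-2.91), Slc22a2 (-3.04), Pamr1 (-3.09), Fgf20 (-3.5), Coch (-3.63), Mlana (-4.48) and Inmt (-4.67). Tescl, with -3.38 at 24 h and -3.21 at 2 h, did not differ between the times by this test (adjusted p = 0.96).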

How the results depend on the processing

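The number of probes called, 613, depended strongly on the arrays and the spread estimate used. It was 4629 with all 15 arrays, 2413 with group weights, 3806 with slide as a random block and 3201 with scan day as a block. With the 6 arrays it was 3851 with array weights, 1215 with trended and robust variances, 1078 after normexp, 329 when probes entered through any of the 5 groups, and 0 with no filter on dim probes (5752 at an unadjusted p under 0.05), at an adjusted p under 0.01, and in scan day 1 alone (5664 unadjusted). Slide as a fixed block over the 12 estrogen arrays gave 4 calls, 2 probes of AK054546, Elovl3 and Ttc9, named after their values were seen. Scaling by the array median gave 648 calls, 68.2% of them higher with estradiol against 58.2%. Requiring a signal well above background on all 6 arrays gave 844 calls, 465 (55.1%) higher with estradiol and 379 higher with estriol. Leaving out 1 array gave 0 to 1216 calls, and in the 15-array fit 2607, 2859 and 3712 without E2 24h replicates 1, 2 and 3 and 4311, 5828 and 2902 without E3 24h replicates 1, 2 and 3; without E3 24h replicates 2 and 3 it gave 2765. Calls were 0 where an E2 24h array or E3 24h replicate 3 was left out of the 6-array fit.

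The replicate number as a block gave 0 calls in all, 0 in DNA replication and 0 in sterol synthesis (4651 probes unadjusted). The numbers come from the array titles, and no same-numbered pair of deviations correlated above 0. With 3 arrays a group, that does not settle whether the numbers pair the arrays.

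DNA replication members called, 32, were 0 with no dim filter, at p under 0.01, with slide as a fixed block and in scan day 1 alone, 0 to 31 with 1 array left out, and 42 to 45 with 1 left out of the 15-array fit. Over all 34 settings their median difference was 0.99 to 1.35. Sterol and fatty acid members called, 9, were 21 with 15 arrays, 19 with group weights, 17 with array weights, 15 with trended variances, 14 by median scaling, 15 after normexp, 19 with slide as a random block, 20 with scan day as a block and 14 without E3 24h replicates 2 and 3. They were 0 with no dim filter, at p under 0.01, with slide as a fixed block and in scan day 1 alone, 0 to 15 with 1 array left out, and 19 to 23 in the 15-array fit; their median stayed between 0.9 and 1.34. The mitosis median ran from 0.46 to 1.8 and the macrophage median from -1.26 to -0.31.

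None of the 59 called probes among the 72 named changed sign under the 32 to 34 settings in which it was tested. These probes were chosen for their call in these same arrays. Where the groups do not overlap, leaving arrays out cannot change the sign, so the constant sign is no support. All 59 lost their call in some settings, such as scan day 1 alone and the replicate number as a block. Uncalled genes did: Esr1 0.01 by median scaling and 0.02 over the mean of its probes; Fos -0.04 after normexp, -0.03 with slide as a random block, and -1.2 with slide as a fixed block, where Pgr was -0.75, Greb1 -1.38, Lcn2 -3.02 and Muc1 -0.99. In scan day 1 alone Ltf was 1.27, C3 0.3 and Cdkn1a 0.1. With array weights Ltf was 0.13 and Cdkn1a 0.15, and with scan day as a block 0.74 and 0.19. Without E3 24h replicates 2 and 3, Ltf was 0.44, C3 0.4 and Cdkn1a 0.28. With 1 array left out, C3 ran from -0.85 to 0.19, Cdkn1a from -0.38 to 0.24 (0.14 without E3 24h replicate 2), Greb1 from -0.33 to 0.86 (-0.12 without E3 24h replicate 1) and Fos from -0.31 to 0.45 (-0.14 without E2 24h replicate 3, -0.06 without E3 24h replicate 1); Ltf reached 0.04 without E2 24h replicate 1 and 0.8 without E3 24h replicate 2. The causes of these changes were not tested. Slide as a random block could not be fitted to the 6 arrays, since only slide 4 holds 2 of them. Probes not well above background have only a bound.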
